A study of Rattus norvegicus with 4 samples.

Results

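The genes described here encode the collagens, laminins and cell-surface or secreted proteoglycans of the extracellular matrix, together with fibronectin and the SPARC family. They were taken by symbol: collagen chains, laminin chains, glypicans (*Gpc*), syndecans (*Sdc*), *Spock* genes, and *Fn1, Sparc, Bgn, Dcn, Lum, Fmod* and *Prelp*, with at least 1 unique molecular identifier (UMI) in 10 or more cells. Of 75 rows with such a name, 64 met the cell limit, out of 30058 genes in the table and 19390 that met the same limit. The members were 10 fibrillar collagens, 7 basement membrane collagens, 5 collagen VI chains, 13 other collagens, 5 laminin alpha, 3 beta and 3 gamma chains, 5 genes of the fibronectin and SPARC family, 5 small leucine-rich proteoglycans, 4 glypicans and 4 syndecans. *Col1a2*, the partner chain of *Col1a1*, was under the limit in each of its rows, with UMIs in 7 and 0 cells against 245 for *Col1a1*. The study reports that reads of many genes fell outside their annotated 3′ ends. Whether this lowered the count of *Col1a2* was not tested.

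Single cells of the anterior pituitary of Sprague-Dawley rats were measured in 2 lanes from female rats (44 days old, in diestrus) and 2 lanes from male rats (59 days old), all untreated. Each sex was 1 pool of 4 glands, and its lanes were loaded from the same dispersed cells. A difference between the sexes therefore cannot be told apart from a difference between the pools, or their ages, and p-values between the sexes measure lane-to-lane error. Contrasts between cell types rest on the same lanes and pools, so their SEs and p-values do not measure spread between animals either. The lanes held 1868 and 1861 cells (female) and 2047 and 2085 cells (male), with 7971 to 9413 UMIs per cell at the median, and values below are given in that lane order. The Y-linked *Eif2s3y* had 0 and 1 UMIs in the female lanes and 2038 and 2100 in the male lanes.

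The matrix around cells has 2 main forms. Basement membranes are thin sheets of collagen IV and laminin under epithelia and around capillaries, and the interstitial matrix is built of fibrillar collagens, collagen VI, fibronectin and small leucine-rich proteoglycans. In the anterior pituitary, cords of hormone-producing cells and folliculostellate cells (FSC, glia-like supporting cells) lie between wide capillaries whose walls hold endothelial cells and pericytes, each bounded by a basement membrane.

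Cell types were set by the marker genes of the study: leukocytes (Le, 541 cells), endothelial cells (EC, 133), FSC (2314), corticotrophs (C, 793), gonadotrophs (G, 237), thyrotrophs (T, 88), somatotrophs (S, 1888) and lactotrophs (L, 486), plus erythrocytes (E, 361), melanotrophs (Mel, 60) and posterior lobe cells (PP, 59). The pericyte rule, UMIs of at least 2 of *Col1a1*, *Dcn* and *Lum* above their thresholds, gave 51 cells (PC): 12 and 8 in the female lanes, 18 and 13 in the male lanes. The study's rule also lists *Col1a3*, which was not used here, and its own number of such cells differs from this one. Those 3 genes are members, so their level in PC is what chose the cells and is given without a test. *Dcn* was at 7159 ± 2008 CPM (UMIs of the gene scaled to 1e6 UMIs of the cell type in a lane; mean ± SD over 4 lanes), *Col1a1* at 3605 ± 959 CPM and *Lum* at 3160 ± 919 CPM. The library tags each molecule at its 3′ end, so CPM needs no correction for gene length. It does depend on how well the 3′ end of each gene is annotated, which limits comparisons of level between genes.

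The label of pericyte was only partly borne out by other markers. Of 12 mural cell markers, 11 were detected in PC (*Myh11* was at 0), with a summed level of 418 to 2509 CPM across lanes, and 18 of 51 cells had UMIs of 3 or more of them. This was not particular to PC: EC had all 12, at 272 to 1431 CPM, and 11 of 133 EC had 3 or more. Of 11 fibroblast markers, 10 were detected (*Ogn* was at 0), at 1579 to 2843 CPM, and 40 of 51 cells had 3 or more. *Pdgfra*, a fibroblast receptor, was found in 32 cells, *Pdgfrb*, a mural receptor, in 36, and both in 22. Of 6 endothelial markers, 3 were detected in PC (*Pecam1*, *Cdh5* and *Tie1* were at 0). Their summed level was 21.5 to 22.5 CPM across lanes, against 3356 to 4561 CPM in EC. The summed leukocyte markers ran from 21.6 to 5086 CPM across lanes in PC. In addition, 33 of the 51 cells met the FSC rule as well, so that levels in FSC are without them, and 8 were called doublets. The part of these cells in the results for PC was not tested beyond the counts without them given below.

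Summed over all 64 members, the level was 36003.5 ± 3277 CPM in PC, and 22080 ± 2903 CPM without the 3 genes of the rule. It was 7932 ± 89.4 CPM in EC and 3031 ± 214 CPM in FSC. The hormone-producing types lay between 583 CPM (S) and 1156 CPM (T), and Le were at 363 ± 84.6 CPM. Erythrocytes, which should make none of these proteins, stood at 17.2 ± 4.45 CPM, taken as a low estimate of the free RNA in other types. The 7 hormone genes summed to 1802 to 2030 CPM across lanes in erythrocytes, 3310 to 3934 CPM in EC and 3850 to 4855 CPM in Le. The make-up differed as much as the amount. EC carried mostly SPARC family (4632 ± 218 CPM) and basement membrane collagens (1829 ± 226 CPM), and their fibrillar collagens summed to 134 ± 46.3 CPM against 8727 ± 2352 CPM in PC. In FSC the syndecans (632 ± 68.3 CPM) and small leucine-rich proteoglycans (418 ± 56.1 CPM) came after the SPARC family (1273 ± 222 CPM).

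**Figure D1:**
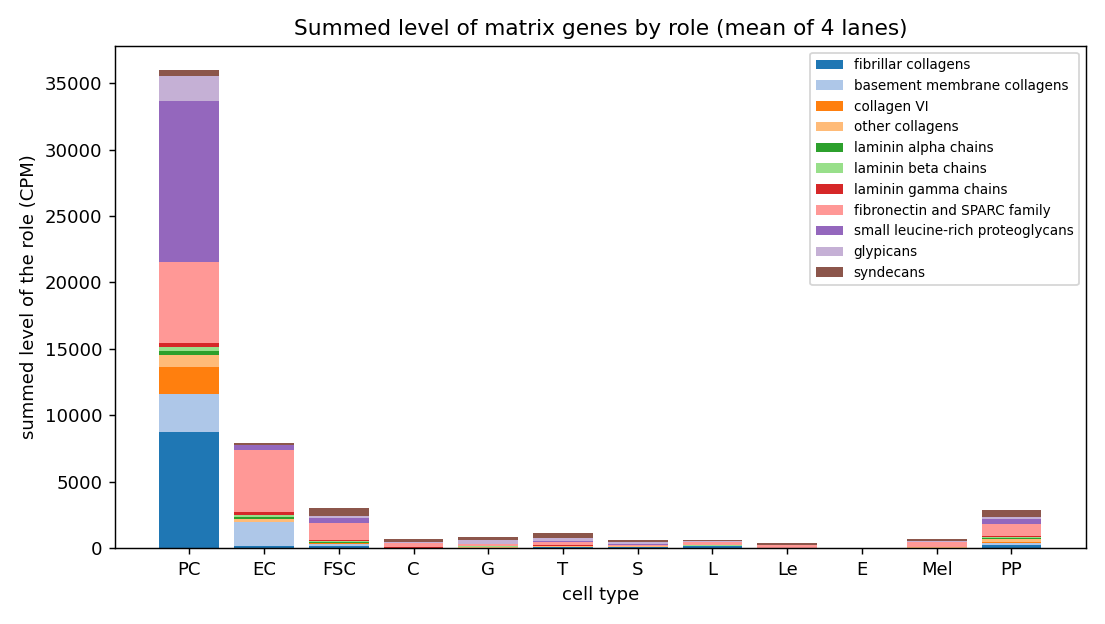
Summed level of the members of each role (CPM, mean of 4 lanes, linear axis from 0) in the 12 cell types, with the roles stacked in colour. PC reached 36003.5 CPM, EC 7932 CPM and FSC 3031 CPM, while erythrocytes stood at 17.2 CPM. The PC bar includes *Col1a1*, *Dcn* and *Lum*, which chose those cells.

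**Figure D2:**
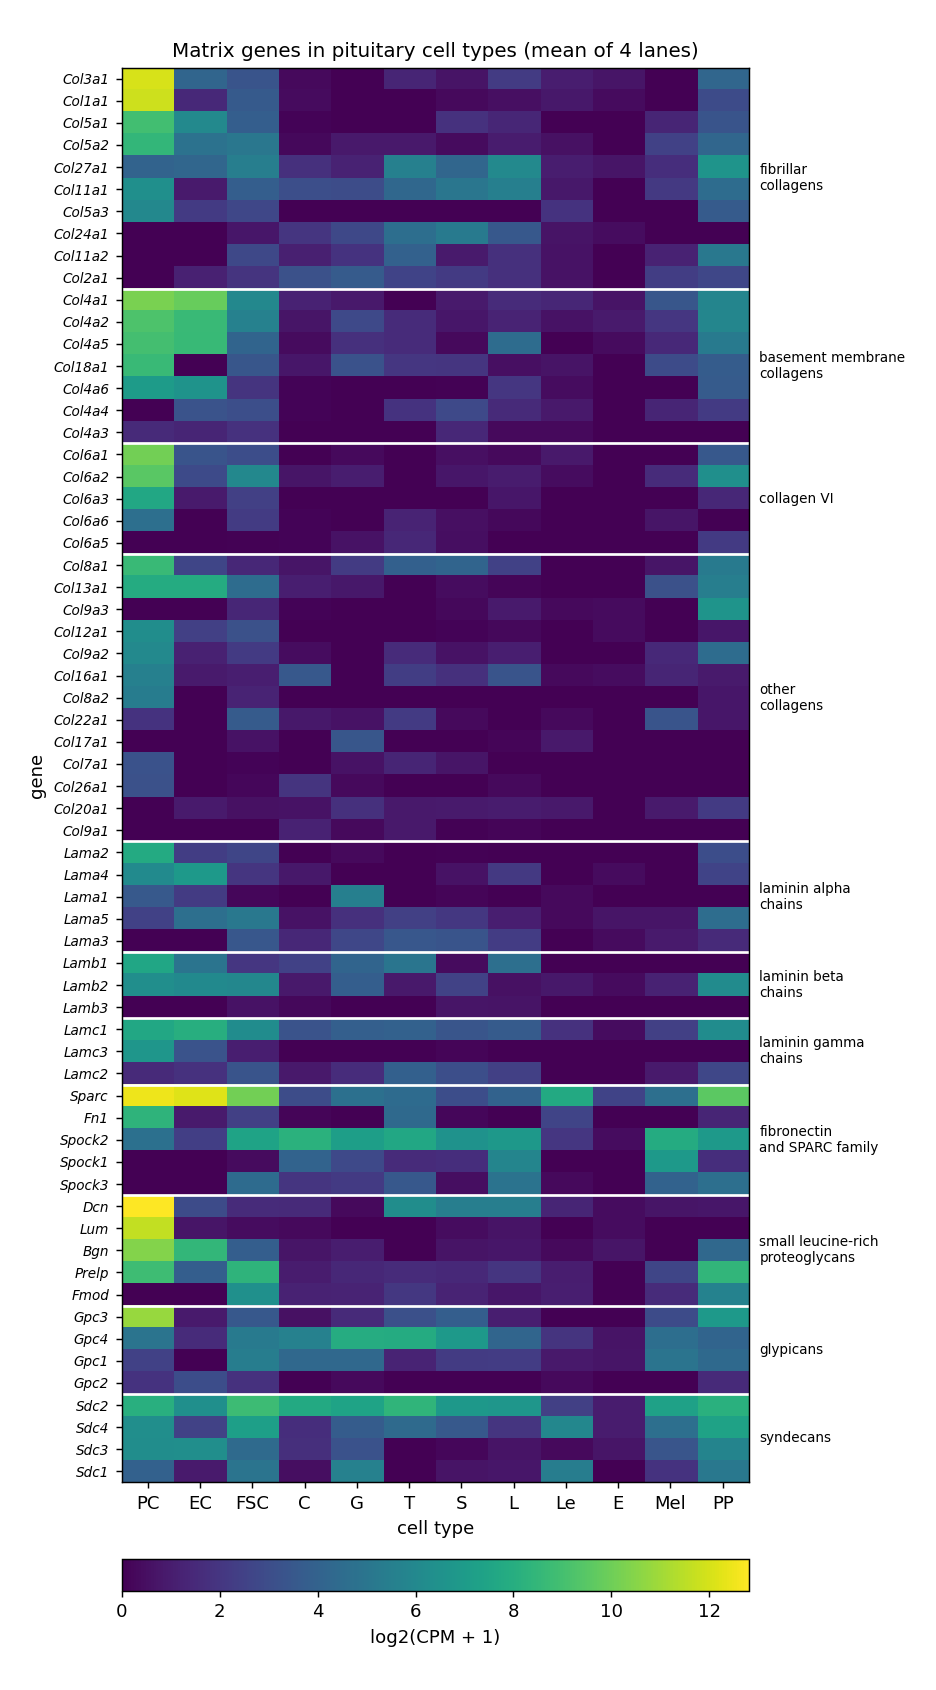
Level of each of the 64 members (rows, grouped by role) in the 12 cell types (columns) as log2(CPM + 1), mean of 4 lanes. The column of PC is bright through fibrillar collagens, collagen VI and proteoglycans, PC and EC share the basement membrane collagens, and *Gpc4*, *Spock2* and *Sdc2* run through the hormone-producing types. In Mel and PP the female lanes held 3 cells and 1 cell each.

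Which type carried each gene was tested over the 9 types from Le to PC on UMI sums per type and lane, with edgeR's quasi-likelihood test and Benjamini-Hochberg adjustment over the 11796 genes that passed the filter on low counts. A gene was called dominant in a type where it was at least 3-fold higher, with adjusted p under 0.001, than in each of the 8 other types. The filter kept 50 of the 64 members. The 14 others, among them *Col4a3, Col4a4, Col2a1, Col17a1* and *Col9a3*, were too sparse in these 9 types and are given by level only. E, Mel and PP were not tested, and the next type below means the next of the 9. The tests scaled each sum by a TMM factor (trimmed mean of M values), and CPM are without it. A ratio of CPM can therefore differ from the log2 difference given beside it. A member that passes such a filter through 1 type is bound to differ, so the counts below describe the members and are read against the share of all genes.

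In PC, 17 members were dominant besides the 3 genes of the rule, where 1.56% of all genes tested were dominant in PC. The rule chose cells for high levels of 3 matrix genes, so members found with them are raised in PC by the choice. Calls, folds and p-values of PC over other types, for members and related genes, therefore describe the chosen cells and are no independent support. In FSC 1 member was dominant, *Fmod* (0.958% of all genes), and in L 1, *Spock1* (0.288%; 1.25% of all genes were dominant in 1 of the 5 hormone-producing types). No member was dominant in EC (1.63% of all genes), Le (4.21%), C (0.348%), G (0.348%), T (0.11%) or S (0.153%) by edgeR or by DESeq2. At an unadjusted p under 0.05 with no limit on the fold, 1 member was higher than in each other type in EC (*Lamc1*), in C (*Spock2*), in G (*Lama1*) and in S (*Col24a1*), and 0 in Le and T. Of the PC, 14 met no other rule and were no doublets: 5 and 4 in the female lanes, 5 and 0 in the male lanes. Sums of fewer than 5 cells were left out. Only the female lane of 1868 cells and the male lane of 2047 cells therefore stood for PC in that fit. In it, 10 members were dominant in PC: *Col5a1, Lamc3, Col9a2, Lamb1, Col12a1* and *Fn1* no longer passed, and *Col8a2* was too sparse to test. The part of the lost lanes in this was not tested. With only the 29 PC that had 2 or more mural markers, 15 members were dominant in PC.

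Fibrillar collagens form the cables of the interstitial matrix, and the main chains had their highest level in PC. *Col3a1*, the collagen III chain, stood at 3841, 6057, 3533 and 3014 CPM in PC, at 2.69, 0, 49.6 and 15.4 CPM in EC, and at 5.87, 10.1, 5.38 and 14.6 CPM in FSC. The lowest PC lane lay far above the highest lane of any other type. Against EC, the next type, the difference was 7.93 ± 0.45 (log2 ± SE; edgeR, adjusted p = 3.81e-16). *Col5a1* (495 ± 135 CPM in PC) and *Col5a2* (355 ± 42.2 CPM), the chains of collagen V that nucleate fibrils, were also dominant in PC, with EC at 64.8 ± 21.2 CPM for *Col5a1* and FSC at 32.3 ± 3.44 CPM for *Col5a2*. *Col5a1* was not called in PC by DESeq2 (adjusted p = 0.0406).

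Other fibrillar chains were also found in hormone-producing types. *Col24a1* stood at 35.4, 37.8, 37.8 and 41.7 CPM in S and 24.1, 24.7, 20.2 and 26.5 CPM in T, with 0 UMIs in PC and EC. Against a floor of 3 UMIs, its level in S was at least 4.68-fold higher than in PC and at least 14.8-fold higher than in EC, and it passed the call over each type but T (log2 difference of S over T 1.18 ± 0.32, adjusted p = 0.0074). *Col27a1* was at 63.8 ± 6.14 CPM in L, 46.9 ± 39.3 CPM in T and 43.8 ± 1.87 CPM in FSC, and the neighbours L and FSC differed by 1.05 ± 0.18 (log2, L higher), under the 3-fold limit. *Col11a1* was widely spread, at 82.4 CPM in PC, 45.4 CPM in L and 32.01 CPM in S.

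Collagen VI, which forms beaded filaments around cells, needs its alpha chains together. In PC, *Col6a1* stood at 1240.5, 1233, 788 and 1105 CPM, *Col6a2* at 642, 1060.0, 570.1 and 654 CPM, and *Col6a3* at 206 CPM on average. All 3 were dominant there. FSC, which are without the 33 PC that also met the FSC rule, had *Col6a2* with little of the others. The part of those cells in this was not tested. *Col6a2* was at 66.6, 60.7, 63.3 and 57.0 CPM in FSC, *Col6a1* at 3.67, 5.62, 8.46 and 10.8 CPM, and *Col6a3* at 4.29 CPM. In single cells, 47 of 51 PC had UMIs of both *Col6a1* and *Col6a2*, with 1.55 UMIs of *Col6a1* for each of *Col6a2*, and in FSC 852 of 2314 cells had *Col6a2* and 128 had *Col6a1*, with a ratio of 0.12. *Col6a2* exceeded FSC in PC by 3.27 ± 0.20 and *Col6a1* by 6.99 ± 0.31 (log2 ± SE, adjusted p = 1.92e-15 and 2.09e-18).

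Collagen IV, the network of every basement membrane, was shared by PC and EC. *Col4a1* stood at 827, 2055, 1065 and 933 CPM in PC and at 778, 811, 854 and 1199 CPM in EC, and the lanes of the types overlapped. In FSC it was at 71.0, 66.1, 57.3 and 55.9 CPM, below every lane of both. The log2 difference of PC over EC was 0.29 ± 0.19 (adjusted p = 0.32), and that of EC over FSC was 3.68 ± 0.19 (adjusted p = 2.78e-18). *Col4a2* (605 ± 138 CPM in PC, 412 ± 70.1 CPM in EC), *Col4a5* (509 ± 105 and 401 ± 52.3 CPM) and *Col4a6* (128 ± 44.2 and 94.4 ± 23.3 CPM) showed the same order. Outside PC and EC, *Col4a5* was seen in 20.8% of L, at 21.9 ± 11.8 CPM, close to its 16.8 ± 2.00 CPM in FSC.

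The 6 collagen IV genes lie in 3 head-to-head pairs, each transcribed outward from a common stretch, and the members of 2 of the pairs moved together across types. On the RefSeq annotation of GRCr8, the starts of *Col4a1* (plus strand) and *Col4a2* (minus strand) on chromosome 16 are separated by 76 bases, those of *Col4a3* and *Col4a4* on chromosome 9 by 412 bases and those of *Col4a5* and *Col4a6* on chromosome X by 1414 bases. The stretch between the first pair and the 250 bases before the starts of the third are shown because these pairs carry the pattern shared by PC and EC; capitals mark GGGCGG on either strand (CCGCCC is its reverse complement), and neither CCAAT nor TATAAA occurs in any of them on either strand.
*Col4a1*-*Col4a2*, chr16:84885521-84885596, plus strand: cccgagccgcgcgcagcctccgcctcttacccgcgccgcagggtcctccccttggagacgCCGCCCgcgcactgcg
*Col4a5*, chrX:109907109-109907358, plus strand: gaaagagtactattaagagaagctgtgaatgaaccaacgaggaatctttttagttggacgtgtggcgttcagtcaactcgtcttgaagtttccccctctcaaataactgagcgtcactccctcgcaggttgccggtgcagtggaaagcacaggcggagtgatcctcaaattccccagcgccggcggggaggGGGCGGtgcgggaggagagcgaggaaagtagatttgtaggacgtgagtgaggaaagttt
*Col4a6*, chrX:109905945-109906194, minus strand: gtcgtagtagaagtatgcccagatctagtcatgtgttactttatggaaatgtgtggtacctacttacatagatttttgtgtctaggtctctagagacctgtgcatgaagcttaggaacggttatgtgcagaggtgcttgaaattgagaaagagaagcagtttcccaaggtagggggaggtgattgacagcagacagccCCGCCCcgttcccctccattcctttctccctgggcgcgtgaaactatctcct

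Across the 12 types, log2(CPM + 1) of *Col4a1* and *Col4a2* had a Pearson r of 0.964, rank 15 of 2016 pairs of members, and *Col4a5* and *Col4a6* an r of 0.968, rank 11. *Col4a3* and *Col4a4*, which reached at most 2.60 and 8.55 CPM in any type, had an r of 0.515, rank 722. These correlations describe 12 points that share their lanes. Closest of all were *Col6a1* and *Lama2* (r = 0.993), then *Col1a1* and *Col6a3* (0.993). In single PC, 43 of 51 cells had both *Col4a1* and *Col4a2*, with 1.76 UMIs of *Col4a1* per UMI of *Col4a2*, and the ratio was 2.14 in EC. For *Col4a5* over *Col4a6* the ratio was 4.02 in PC and 4.44 in EC. Of the 64 members, 49 had a promoter window in the RefSeq table, and 63.3% of these held GGGCGG within 250 bases before the start, against 32.4% of all 27457 genes with a window. CCAAT was found in 26.5% of the members and 34.3% of all genes, and TATAAA in 6.12% and 13.1% (either strand each). Members had UMIs in 10 or more cells, a limit not set for all genes, so these shares are not matched for expression.

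*Col18a1*, whose C-terminal piece is endostatin, departed from collagen IV. It stood at 196, 346, 533 and 536 CPM in PC and had 0 UMIs in all EC lanes, so that its level in PC was at least 164-fold higher than a floor of 3 UMIs in EC. FSC were at 10.0, 7.64, 10.8 and 10.2 CPM. Among the other collagens, *Col8a1*, a short-chain collagen of vessel walls, was highest in PC at 435, 454, 390 and 343 CPM. S followed at 11.6, 11.5, 21.8 and 20.9 CPM, lower by 3.83 ± 0.34 on the log2 scale (adjusted p = 1.59e-11). *Col13a1*, a transmembrane collagen, was instead level in PC (231 ± 74.7 CPM) and EC (238 ± 48.7 CPM). *Col8a2, Col9a2* and *Col12a1* were dominant in PC at 41.0, 64.5 and 77.3 CPM. *Col8a2* lost the call without any 1 of the lanes (adjusted p up to 0.0076) and by DESeq2. *Col12a1* lost it without the female lane of 1861 cells (adjusted p = 0.00576), the male lane of 2047 (0.00402) or the male lane of 2085 (0.00475).

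Laminins are cross-shaped trimers of an alpha, a beta and a gamma chain, and the alpha chains were divided among the types. *Lama2*, the alpha chain of laminins around muscle and nerve, stood at 185, 368, 225 and 129 CPM in PC, 0, 0, 10.6 and 5.15 CPM in EC, and 2.69, 4.27, 8.46 and 5.78 CPM in FSC. It was dominant in PC, 5.11 ± 0.39 (log2) above FSC, the next type (adjusted p = 5.91e-11; DESeq2 did not call it, adjusted p = 0.00246). *Lama4*, the alpha chain of vessel laminins, was at 43.5, 64.9, 82.5 and 85.8 CPM in PC and 162, 111, 85.1 and 124 CPM in EC. The difference of EC over PC, 0.73 ± 0.41 on the log2 scale, did not pass (adjusted p = 0.24), and EC were 4.41 ± 0.39 above L, the type next in level (adjusted p = 9.01e-11). *Lama5* was at 33.5 CPM in FSC and 25.0 CPM in EC. *Lama3* reached 10.1 CPM in FSC and T, with 0 UMIs in PC and EC. *Lama1*, an alpha chain of early basement membranes, was found mainly in G, at 45.7 ± 37.9 CPM, and passed the call there over each type but PC (log2 difference 2.58 ± 0.86, adjusted p = 0.019).

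The beta and gamma chains were more widely shared. *Lamb1* stood at 141, 281, 113 and 215 CPM in PC, where it was dominant, and at 29.0 ± 7.96 CPM in EC, 30.3 ± 9.62 CPM in T and 24.7 ± 8.26 CPM in L. S were at 0.285 CPM. *Lamc1*, the gamma chain of most laminins, was highest in EC at 253, 209, 227 and 355 CPM, with PC at 141, 324, 180.0 and 161 CPM and FSC at 67.8, 63.6, 83.5 and 77.8 CPM. PC and EC overlapped (log2 difference of EC over PC 0.52 ± 0.23, adjusted p = 0.12). *Lamb2* was close in PC (80.0 CPM), EC (66.5 CPM) and FSC (60.6 CPM). *Lamc3* was dominant in PC at 106 ± 42.9 CPM. It lost the call by DESeq2 and without any lane but the male lane of 2085 cells (adjusted p 0.00163 without the female lane of 1868 cells, 0.00104 without that of 1861 and 0.00355 without the male lane of 2047).

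*Sparc*, a secreted collagen-binding glycoprotein, had the most UMIs of all members (35416 over all cells), though the mean level of *Dcn* was higher in PC. *Sparc* stood at 5941, 6057, 5574 and 5428 CPM in PC, 4766, 4699, 4735 and 4308 CPM in EC, and 1290.2, 1344, 828 and 847 CPM in FSC. PC and EC did not overlap but differed by 0.26 ± 0.22 on the log2 scale (adjusted p = 0.48), and EC exceeded FSC by 1.96 ± 0.23 (adjusted p = 2.46e-09). Le followed at 281, 234, 214 and 155 CPM, with UMIs in 32.3% of cells (exact 95% binomial interval 28.4 to 36.5%). In erythrocytes 4.43% of cells had a *Sparc* UMI (2.55 to 7.10%; median depth 8246 UMIs against 6483 in Le). The 6.94% of C (5.27 to 8.93%) is close to that background. *Fn1*, fibronectin, was dominant in PC at 152, 627, 270.1 and 247 CPM. T were next at 24.1, 43.2, 7.58 and 3.31 CPM, lower by 4.03 ± 0.50 (log2; adjusted p = 1.01e-07).

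The *Spock* genes, which encode testican proteoglycans of the SPARC family, were found in endocrine types, and *Spock2* and *Spock3* in FSC as well. *Spock2* stood at 276, 268, 298 and 304 CPM in C, with UMIs in 92.3% of cells, at 204 ± 26.1 CPM in T and at 169 ± 56.4 CPM in FSC. *Spock1* was at 23.9, 10.99, 87.2 and 103 CPM in L and at 11.3, 20.8, 12.4 and 19.4 CPM in C, so the lanes overlapped. It was called dominant in L, 1.82 ± 0.34 (log2) above C (adjusted p = 7.3e-05). That call was lost by DESeq2, with library size alone as scaling, and without the female lane of 1868 cells or either male lane (adjusted p 0.00315, 0.0057 and 0.00581 against the type hardest to exceed). In Mel, which were not tested, *Spock1* stood at 151 and 144 CPM in the male lanes. *Spock3* was at 27.9 CPM in L and 21.6 CPM in FSC.

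Small leucine-rich proteoglycans coat collagen fibrils and set their width. *Bgn*, biglycan, stood at 1186, 1428, 1560.4 and 1427 CPM in PC and at 374, 394, 344 and 288 CPM in EC, and every PC lane was above every EC lane. The difference was 1.94 ± 0.17 on the log2 scale (adjusted p = 6.15e-11), the smallest margin of the members dominant in PC. *Prelp*, a basement membrane anchor, was shared by PC (435, 498, 315 and 579 CPM) and FSC (346, 372, 262 and 285 CPM), with a difference of 0.29 ± 0.20 (adjusted p = 0.30). It had UMIs in 83.1% of FSC and 82.4% of PC, and FSC exceeded S by 6.84 ± 0.23 (adjusted p = 5.86e-25). In PP *Prelp* was at 416 and 512 CPM in the male lanes.

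*Fmod*, fibromodulin, was the 1 member dominant in FSC. It stood at 83.2, 95.7, 81.9 and 84.0 CPM in FSC, with UMIs in 40.8% of cells, and had 0 UMIs in every lane of PC and EC. Against the floor of 3 UMIs, its level in FSC was at least 10.5-fold higher than in PC and at least 33.1-fold higher than in EC. The hormone-producing types were at 0.729 to 3.27 CPM, and FSC exceeded S by 5.41 ± 0.27 (log2; adjusted p = 3.11e-18). In PP it stood at 44.2 and 85.9 CPM in the male lanes. In FSC, 843 of the 943 cells with *Fmod* also had *Prelp*. *Fmod* was not called over PC in the fit with only the PC that met no other rule and were no doublets (adjusted p = 0.00858). That fit held 5 such cells from the female lane of 1868 cells and 5 from the male lane of 2047.

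*Dcn*, decorin, was also found away from the PC that it helped to choose. It stood at 104, 55.5, 78.3 and 72.8 CPM in T, 49.8, 55.7, 34.7 and 35.0 CPM in S and 13.6, 8.60, 64.5 and 87.9 CPM in L. The lowest T lane lay just under the highest S lane, and the types did not pass the test (log2 difference 0.19 ± 0.41, adjusted p = 0.82). G and C were at 0.266 and 1.90 CPM and FSC, without the cells counted as PC, at 1.97 CPM. In S 32.5% of cells had a *Dcn* UMI (30.4 to 34.7%), against 1.89% of C (1.06 to 3.10%) and 0.277% of erythrocytes (0.00701 to 1.53%), at median depths of 13660.5, 11474 and 8246 UMIs. Thinned to 2000 UMIs a cell, the shares were 8.37% in S, 0.378% in C and 0% in erythrocytes.

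Glypicans and syndecans carry heparan sulphate chains on the cell surface, and each had its own distribution. *Gpc3* stood at 2437, 1449, 1080.3 and 2359.9 CPM in PC, with S next at 12.2, 9.62, 15.9 and 14.1 CPM, a difference of 6.30 ± 0.22 (log2; adjusted p = 5.46e-23). *Gpc4* was highest in 3 of the endocrine types, at 269, 294, 183 and 227 CPM in G, 136, 234, 242 and 314 CPM in T, and 129, 123, 120.2 and 118 CPM in S. These 3 types did not differ past the call (G over S 0.57 ± 0.20, adjusted p = 0.025), and G exceeded L by 3.26 ± 0.25 (adjusted p = 3.96e-13). *Gpc1* was highest in FSC at 41.5 ± 12.7 CPM. *Sdc2* was spread over many types, at 394, 388, 486 and 462 CPM in FSC, 337, 333, 313 and 334 CPM in T and 185, 216, 225 and 451 CPM in PC, and FSC and T differed by 0.38 ± 0.14 (adjusted p = 0.029). *Sdc4* was at 150.2 ± 12.8 CPM in FSC, 78.8 ± 52.4 CPM in PC and 59.5 ± 32.2 CPM in Le. *Sdc3* was level in EC (79.8 ± 7.99 CPM) and PC (77.2 ± 21.8 CPM). *Sdc1* was at 47.8 ± 45.7 CPM in G and 41.4 ± 4.83 CPM in Le.

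**Figure D3:**
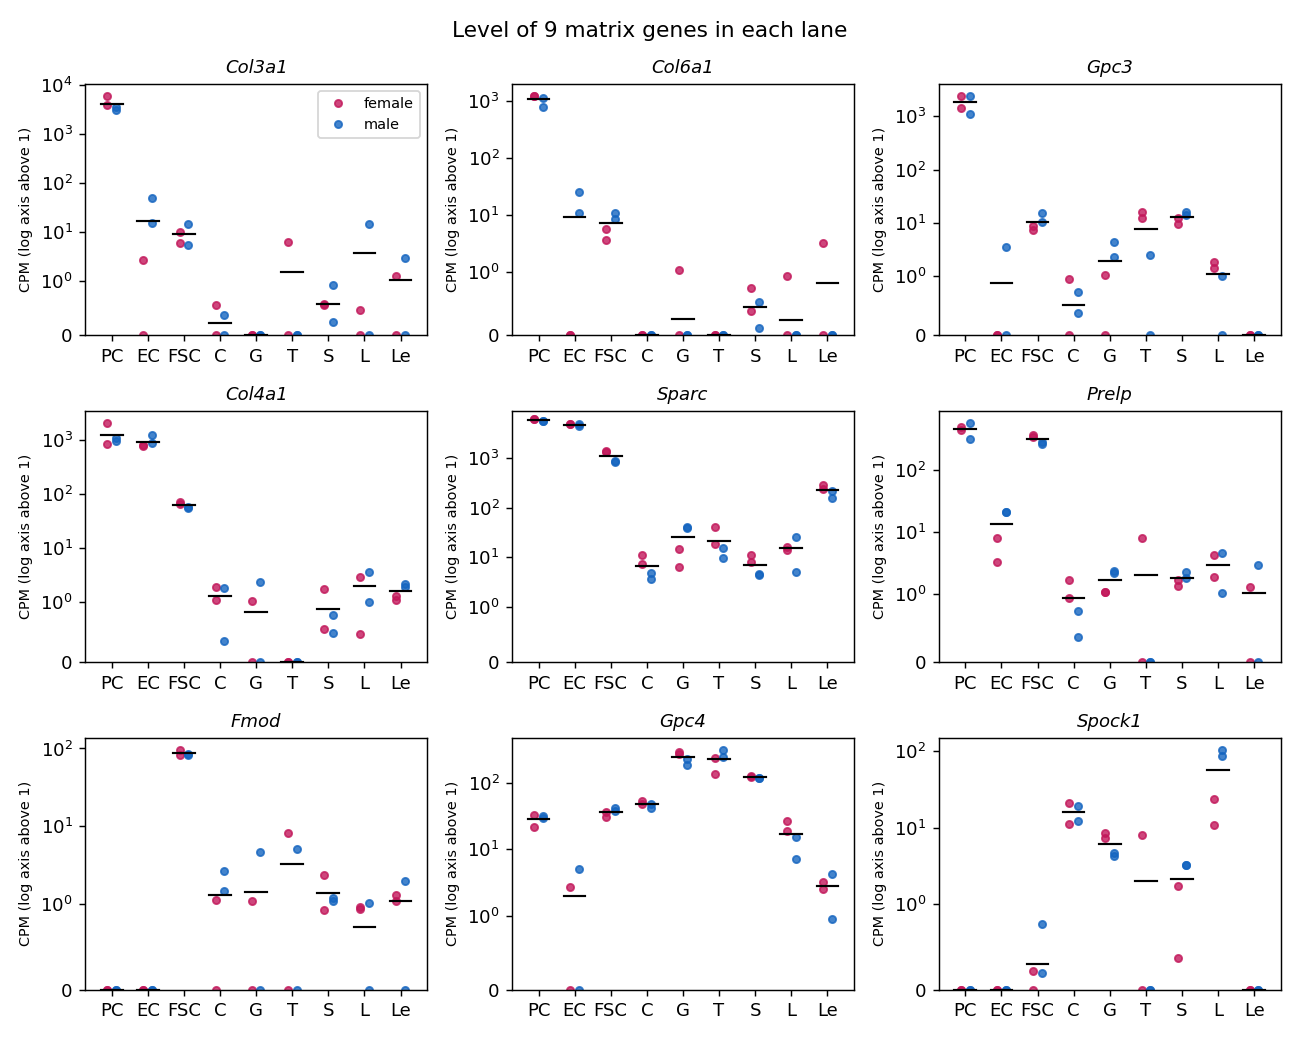
Level of 9 members in each lane (points; female and male lanes in different colours) for the 9 tested types, on a CPM axis that is logarithmic above 1, with the mean of the 4 lanes as a line. *Col3a1*, *Col6a1* and *Gpc3* were highest in PC, *Col4a1* and *Sparc* in PC and EC, *Prelp* in PC and FSC, *Fmod* in FSC, *Gpc4* in G, T and S, and *Spock1* in L, where the male lanes (87.2 and 103 CPM) lay above the female lanes (23.9 and 10.99 CPM).

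PC and EC had the highest summed levels of the members and were compared directly. Because matrix genes chose the PC, members higher in PC describe the chosen cells. Of 47 members tested (the genes of the rule left out), 22 were higher in PC, where 4.01% of all genes were, and none in EC, where 3.3% of all genes were, by edgeR and by DESeq2. At an unadjusted p under 0.05, 2 members were higher in EC (*Lamc1* and *Lama5*). The 3 collagen VI chains, 5 of 7 other collagens and 4 of 7 fibrillar collagens were higher in PC, against 1 of 5 basement membrane collagens (*Col18a1*) and 1 of 5 laminin alpha chains (*Lama2*). The median log2 difference of PC over EC was 2.89 for those 47 and -0.11 for all genes tested. With the other type left out of the comparison, EC were dominant over the 7 remaining types in 10 members (3.4% of all genes), of which 8 were also dominant in PC over those 7 types (0.551%): *Sparc, Col4a1, Col4a2, Col4a5, Col4a6, Col13a1, Lama4* and *Bgn*. The 2 others were *Lamc1* and *Sdc3*. This comparison was added after the data were seen.

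**Figure D4:**
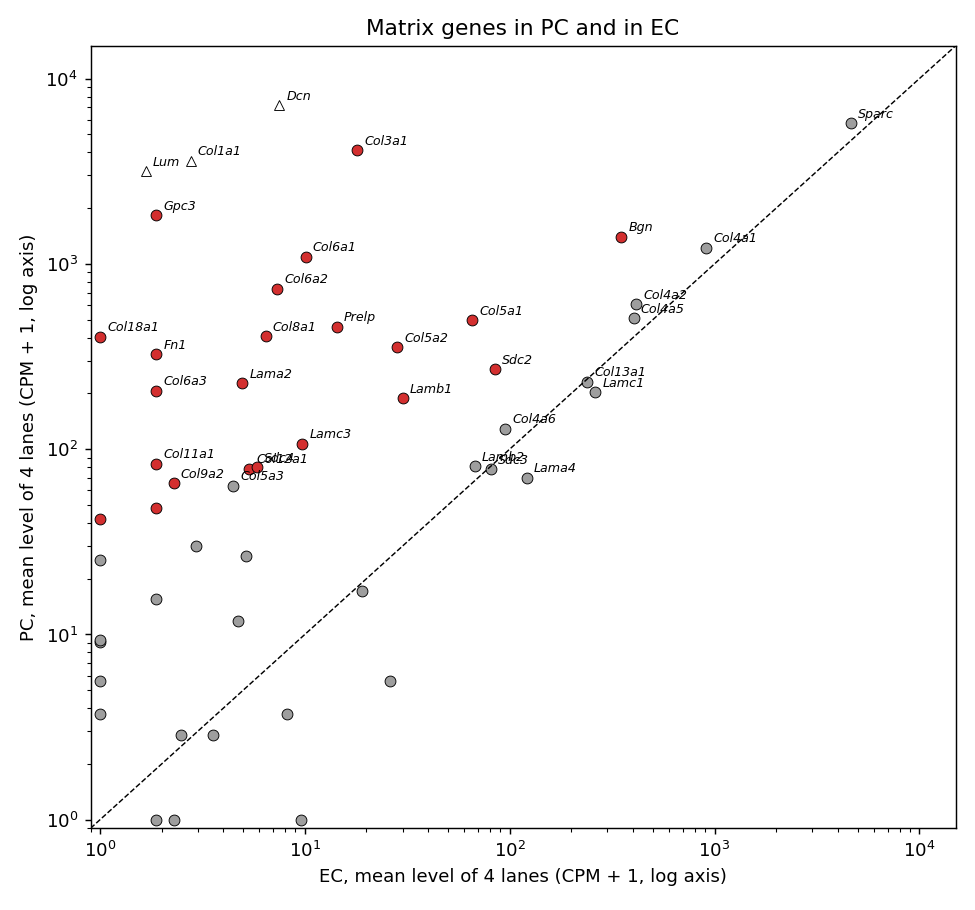
Mean level over 4 lanes in EC (horizontal) and PC (vertical), as CPM + 1 on logarithmic axes, for each member; the dashed line marks equal levels, red points are the 22 members called higher in PC, grey points those not called, and open triangles the 3 genes that set the pericyte rule. *Sparc*, *Col4a1*, *Col4a2*, *Col4a5* and *Col13a1* lie near the line at high levels.

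FSC were set against the mean of the 5 hormone-producing types. Of the 50 members tested, *Col1a1*, *Dcn* and *Lum* among them, 34 were higher in FSC, where 14.6% of all genes were, and 2 were lower, where 6.38% were. Cells that met the pericyte rule were not among the FSC. The median log2 difference was 3.60 for the members and 0.09 for all genes. The largest were *Prelp* (7.36 ± 0.17), *Col6a2* (6.54 ± 0.25), *Col4a1* (6.23 ± 0.25) and *Sparc* (6.16 ± 0.17), each with an adjusted p of 6.14e-22 or lower. The lower ones were *Col24a1* (-4.14 ± 0.32) and *Gpc4* (-1.61 ± 0.18). By role, 5 of 5 basement membrane collagens, 3 of 3 collagen VI chains and 6 of 8 fibrillar collagens were higher in FSC than that mean, against 2 of 5 laminin alpha chains. The contrast averages log levels, so types with very low levels pull the mean down. Summed fibrillar collagens were at 138 CPM in FSC, against 131 (L), 111 (T), 96.4 (S), 29.3 (G) and 22.7 CPM (C). Summed glypicans were at 91.3 CPM in FSC, against 265 (G), 241 (T), 139 (S), 67.8 (C) and 22.1 CPM (L). Summed basement membrane collagens were at 150 CPM in FSC and highest in L among those types, at 30.9 CPM. These sums are CPM without the TMM factors of the contrast. Those factors were 1.10 to 1.14 in FSC, 0.75 to 0.78 in S and 0.62 to 0.98 in L. Scaling by them places S and L higher relative to FSC than CPM does. *Spock2* (-0.12 ± 0.12, adjusted p = 0.40) and *Sdc2* (1.08 ± 0.09) did not pass the call. *Timp1*, an inhibitor of matrix proteases, was the only gene of the wider list below that was dominant in FSC, at 1382 ± 86.6 CPM.

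Of 53 listed genes that make, bind or cut these proteins, 39 were tested and 8 were dominant in PC (1.56% of all genes) and 1 in FSC (0.958%). The 4 with the highest level in PC were *Pcolce* (1381 ± 306 CPM), which helps to trim procollagen, *Nid1* (979 ± 133 CPM), which joins laminin to collagen IV, *Mmp2* (556 ± 149 CPM), a gelatinase, and *Loxl1* (404 ± 32.1 CPM), which cross-links fibres. By group, 4 of 16 collagen-making genes, 1 of 3 basement membrane linkers, 1 of 13 receptors and 2 of 7 proteases and inhibitors were dominant in PC. Against the hormone-producing types, 20 of the 39 were higher in FSC (14.6% of all genes).

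Between the sexes, members passed the limits on both p and fold in 4 of the 9 types, all of them hormone-producing. A gene was called at adjusted p under 0.001 and at least 3-fold, in 1 edgeR fit per type. In Le, EC, FSC, T and PC, 0 members were called (3, 13, 48 and 4 tested in the first 4 types; in PC the genes of the rule are not counted), where 0.273%, 0.528%, 0.411%, 0.845% and 0.0626% of all genes were (0.0909%, 0.352%, 0.233% and 0.532% higher in males in Le, EC, FSC and T). At an unadjusted p under 0.05 there were 2, 1, 22, 1 and 1 members in those types, and DESeq2 called 0 in each. PC had 20 female and 31 male cells, which limits the size of difference that was detectable there. In FSC, 5 members passed the adjusted p but not the fold: *Sparc* (-0.69 ± 0.04, male minus female, log2), *Prelp* (-0.43 ± 0.06) and *Gpc1* (-0.80 ± 0.11) were lower in the male lanes, *Spock2* (0.81 ± 0.07) and *Sdc3* (1.05 ± 0.16) higher.

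In G, 3 of 12 members tested were called, where 1.98% of all genes were, 0.992% in each direction. *Sdc1*, a syndecan of epithelia, stood at 6.37 and 10.6 CPM in the female lanes and 92.8 and 81.5 CPM in the male lanes, a difference of 3.07 ± 0.34 (log2; adjusted p = 1.95e-05). *Lama1* was at 9.56 and 16.9 CPM against 83.6 and 72.9 CPM (2.28 ± 0.33, adjusted p = 0.000215). Both were higher in males with no overlap, and the share of cells with *Lama1* was 9.33 and 15.7% against 43.5% in both male lanes. *Col17a1*, a transmembrane collagen of epithelial adhesion, went the other way, with 37 UMIs in 22 of 145 female G and 0 UMIs in 92 male G, at least 5.86-fold higher in females against a floor of 3 UMIs. DESeq2 did not call it (adjusted p = 0.00897). Scaling by library size alone moved the median of all genes in G from 0.01 to 0.28 and the share of calls higher in males from 50 to 67.0% (from 2 of 3 to 2 of 4 members).

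In S, 3 of 25 members tested were called, all higher in females, where 1.52% of all genes were called, 0.905% higher in females and 0.612% higher in males. *Col5a1* had 28 and 26 UMIs in the female lanes and 0 in both male lanes, at least 27-fold higher against the floor (adjusted p = 1.30e-08). *Col18a1* had 30 and 29 UMIs against 0 and 4, a ratio of 22.1 over the summed lanes (adjusted p = 2.19e-07). *Lamb2*, a laminin beta chain, stood at 7.16 and 10.4 CPM against 1.18 and 0.364 CPM, lower in males by 3.56 ± 0.38 (log2; adjusted p = 3.00e-08). All are low: the UMIs of *Lamb2* were in 84 of 876 female S, those of *Col18a1* in 57 and those of *Col5a1* in 47. Male S were deeper than female S, with a median of 15364 and 15528 UMIs against 11281 and 12024. These 3 calls held under every alternative run. Other members passed the adjusted p but not the fold. *Sparc* (-1.11 ± 0.23, male minus female, log2), *Col27a1* (-0.98 ± 0.14) and *Dcn* (-0.66 ± 0.09) were lower in males. *Sdc2* (0.63 ± 0.06), *Col8a1* (0.83 ± 0.15) and *Lama3* (0.96 ± 0.21) were higher in males.

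In L, 5 of 14 members tested were called, where 5.96% of all genes were, 2.49% higher in males and 3.47% higher in females. *Dcn* stood at 13.6 and 8.60 CPM in the female lanes and 64.5 and 87.9 CPM in the male lanes (2.11 ± 0.24, log2, male minus female; adjusted p = 4.44e-10). Few cells carried it: UMIs were in 4.03 and 10.7% of female L and 11.5 and 15.6% of male L, and single cells held 13 of 29 and 5 of 18 UMIs in the female lanes and 33 of 71 and 19 of 86 in the male lanes. *Spock1* was at 23.9 and 10.99 CPM against 87.2 and 103 CPM (1.78 ± 0.22, adjusted p = 2.62e-09), and *Spock3* at 7.03 and 9.56 CPM against 48.1 and 47.0 CPM (1.86 ± 0.28, adjusted p = 2.83e-07). These 3 were higher in males without overlap of lanes. *Col16a1* had 24 and 29 UMIs in females and 7 and 5 in males (-1.75 ± 0.41, adjusted p = 0.000629), and *Gpc4* 41 and 56 against 17 and 7 (-1.64 ± 0.33, adjusted p = 6.00e-05). These UMIs are not scaled for depth, unlike the log2 differences, and overstate the excess in females. The CPM of *Dcn*, *Spock1* and *Spock3* are without TMM scaling, and show a larger excess in males than the log2 differences do. Female L were deeper than male L, with a median of 16169 and 20499 UMIs against 7581 and 6676, and *Prl* took 319942 and 310177 CPM of their UMIs against 183104 and 174029 CPM. Scaling by library size alone moved the median of all genes from 0.02 to 0.66 in L and the share of calls higher in males from 41.7 to 83.6% (from 3 of 5 to 4 of 4 members). *Col16a1* and *Gpc4* lost their calls with library size alone (-1.11 and -0.99) and by DESeq2. *Col16a1* also lost it without any 1 of the lanes, and *Gpc4* without the female lane of 1861 cells (-1.40) or the male lane of 2085 cells (-1.21). *Spock1* fell under the 3-fold limit without the female lane of 1861 cells (1.31). *Spock2* (0.94 ± 0.13, male minus female, log2) and *Col27a1* (-0.72 ± 0.16) passed the adjusted p but not the fold.

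In C, 1 of 11 members tested was called, where 0.181% of all genes were, 0.101% higher in males and 0.0805% in females. *Col11a1* had 2 and 6 UMIs in the female lanes and 37 and 32 in the male lanes, higher in males by 2.54 ± 0.43 (log2; adjusted p = 0.000191). The call was lost by DESeq2 (adjusted p = 0.0857), without the female lane of 1868 cells (2.06, adjusted p = 0.00418) and without the male lane of 2047 cells (2.44, adjusted p = 0.00345).

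A sex difference called in 1 type is not thereby shown to differ from that in others. When the difference in each type was set against its mean over the 8 other types (edgeR, 1 fit with a group per type and sex), 0 of 56 members were called in any type (in PC the genes of the rule are not counted), where 0.0151% (Le), 0.0303% (EC), 0.0454% (FSC), 0.0379% (C), 0.242% (G), 0.174% (T), 0.0908% (S), 1.14% (L) and 0.0454% (PC) of all genes were; 0 to 3 members per type reached an unadjusted p under 0.05, and no other tool was run. Members with few or no UMIs in some types could hardly pass, since the error of their sex difference there was not bounded. For *Col5a1*, the sex difference in G minus that in S was 6.57 (log2), with an unadjusted p of 0.9997 (edgeR). The 0 in that contrast therefore does not show that sex differences were alike across types. Pairs of types were compared after the data were seen, with the same limit. Between G and S, 1 of 56 members was called (*Sparc*, where 0.666% of all genes were), and between S and L 1 (*Dcn*, 2.86%). Between G and L, 0 were called (1.39% of all genes), with 7 members at an unadjusted p under 0.05.

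**Figure D5:**
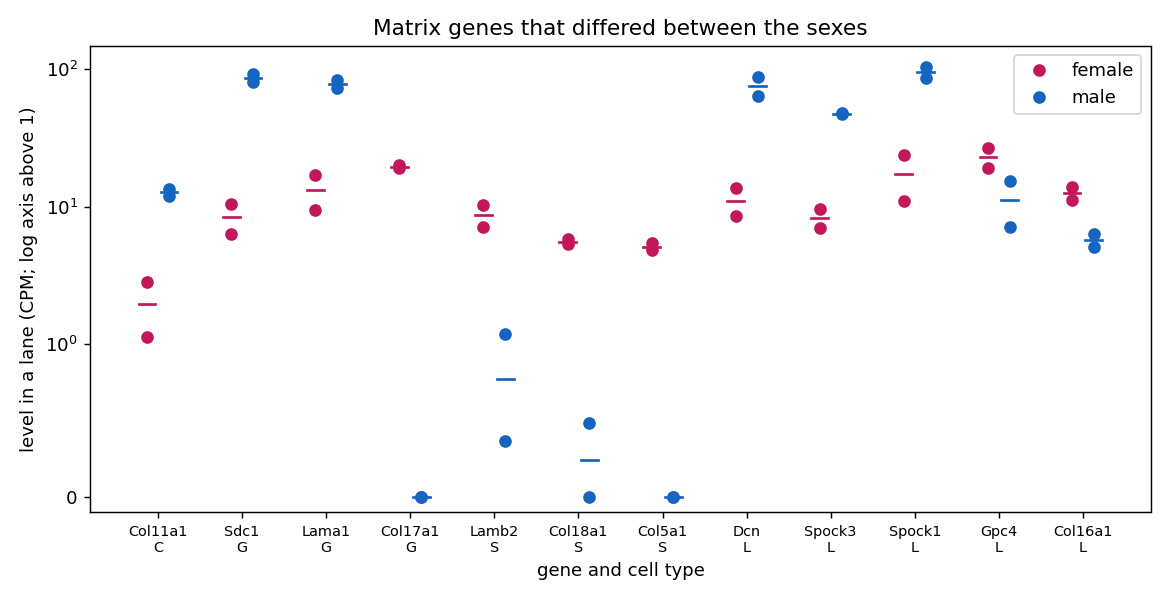
Level in each lane (points; CPM, axis logarithmic above 1) of the 12 members called between the sexes, with the type under each gene and the mean of the 2 lanes of a sex as a line. *Col17a1* in G and *Col5a1* in S were at 0 in both male lanes, and *Sdc1*, *Lama1*, *Dcn*, *Spock3* and *Spock1* were higher in both male lanes than in both female lanes.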

How the data were processed

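RNA was measured by droplet single-cell sequencing (10x Genomics, 3′ chemistry) in 2 lanes of female and 2 of male rat anterior pituitary cells. The authors made the deposited count tables with Cell Ranger 2.1, and the values are counts of UMIs per gene and cell. The study reports that lanes were aggregated with normalization by mapped reads, on gene annotations extended at the 3′ end. Lanes were matched to the sexes by the cell numbers the study gives, and their replicate numbers are unknown. The lanes held 18955509 to 24048021 UMIs.

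Cells were classified by the rules of the study, except that the pericyte rule was applied without *Col1a3*: thresholds on marker genes by Otsu's method per sex, neighbour imputation of 221 cells, and removal of called doublets (201, or 2.56% of 7861 cells), ambiguous cells and outliers in mitochondrial share or depth, which left 7011 cells. PC, Mel and PP passed none of these filters: they were kept whatever their doublet call, mitochondrial share or depth, and also where they met other rules. The lanes shared 30 barcode sequences. UMIs were summed per type and lane and tested with edgeR 4.0.16 (quasi-likelihood, TMM scaling, filterByExpr with a minimum count of 10, in R 4.3.3). Contrasts between types had terms for lane and type. Fits between the sexes had a term for sex within 1 type, or a group per type and sex, and none for lane. Calls needed an adjusted p under 0.001 and at least a 3-fold difference. The SE of a log2 difference is its size divided by the square root of the edgeR F statistic. Intervals are exact binomial 95% intervals and, like the floor of 3 UMIs, cover counting error only. Shares were also computed with every cell thinned to 2000 UMIs. Alternatives were DESeq2 1.42.0, other scalings, filters and cell sets, and leaving out each lane. The scripts were tested on simulated data. The genes named are members dominant in a type, members called between the sexes, and those with the highest level in each role. Promoter sequences are from RefSeq (GRCr8). The members and lists were chosen with earlier results of these data known, and the comparisons of PC or EC without the other and of sex differences between pairs of types were added after seeing the data.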

Additional observations from a re-analysis of the deposited data

Results flagged for a closer look

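Between G and S, the sex difference of *Sparc* (male minus female, log2) differed by 2.74 ± 0.56 (edgeR, adjusted p = 0.000673), which flagged it as a difference between groups under the same contrast. The call was lost when any 1 lane was left out, and single cells of G held 10 of 14 and 1 of 6 *Sparc* UMIs in the female lanes and 8 of 17 and 7 of 19 in the male lanes. Between S and L, the sex difference of *Dcn* differed by -2.73 ± 0.37 (adjusted p = 3.16e-08): *Dcn* was lower in males in S (-0.66 ± 0.09) and higher in males in L (2.11 ± 0.24). Median UMIs per cell were 16169 and 20499 in female L against 7581 and 6676 in male L, and the other way round in S, with 11281 and 12024 against 15364 and 15528. In the male lanes of L, single cells held 33 of 71 and 19 of 86 *Dcn* UMIs. The part of depth and of these cells was not tested.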

How the results depend on the processing

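No paired analysis was possible because the lanes carry no replicate number. The count of members dominant in PC was 17, and 14 to 16 without 1 lane. With PC of another rule or called doublets left out, PC kept sums only in the female lane of 1868 cells and the male lane of 2047. In that set the count was 10, that over any type fell from 19 to 10, that in FSC from 1 to 0 and that higher in PC than EC from 22 to 14 (19 to 20 without 1 lane). The 1 in L became 0 by DESeq2, with library size alone, with totals without hormone and globin genes, in both reduced sets of PC and without 3 of the lanes (range 0 to 1). Members lower in FSC than in hormone-producing cells were 2, but 4 by DESeq2, without a filter and with doublets kept, and 1 with library size alone and with PC of 2 mural markers. Between the sexes, the 1 in C became 0 by DESeq2, with marker-classified cells only and without 2 of the lanes (0 to 1); the 3 in G became 5 without a filter; the 5 in L became 3 by DESeq2 and with totals without hormone and globin genes (2 to 5 without 1 lane); the 0 in FSC became 1 in 1 fit over all types (0 to 1 without 1 lane). Members whose sex difference in a type differed from that in other types were 0, and 1 with library size alone (0 to 1). Between pairs of types they were 0 without any lane for G and S, 0 to 1 for G and L and 1 to 2 for S and L. Thinning to 2000 UMIs lowered the members seen in 20% or more of cells to 8 in EC, 5 in FSC, 3 in G, 3 in T, 2 in S, 0 in L and 0 in Le. Of 31 named calls, 16 held under every alternative run, and none reversed. The causes were not tested.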
